A study of Mus musculus with 16 samples.

Results

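Gene expression in mouse hamstring muscle was compared between the combined injury, spinal cord injury (SCI) with an intramuscular injection of cardiotoxin (CDTX), and its double control, sham surgery with an injection of saline. The comparison rests on 7 of the 16 arrays of the series: SCI+CDTX replicates 1, 3 and 4 (n = 3) and Sham+Saline replicates 1 to 4 (n = 4), chosen by their titles. SCI+CDTX replicate 2 was left out of the submitters' final analysis, per the labels, and is given separately at the end. All mice were female per the labels, and their age, strain and genotype are not given in the sources used here. Cord injury was made between thoracic vertebrae 12 and 13, and muscle was taken 2 days later (hamstring per the series title, whole hindlimb muscle per the protocol), with the doses not given. The other 8 arrays hold the single injuries, SCI+Saline (n = 4) and Sham+CDTX (n = 4), and are used beside the combined injury. Per the series design, bone forms in the muscle (neurogenic heterotopic ossification) in the SCI+CDTX group and in none of the other 3 groups.

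Cardiotoxin is a snake venom peptide that lyses muscle fibres and leaves their precursor cells, which then rebuild the fibres. Neutrophils and then macrophages enter such muscle, clear the debris and release signals to precursor cells and to connective tissue progenitors. Cord injury removes the motor command to the hind limb and changes autonomic and hormonal signals, and muscle below the lesion starts to lose mass.

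The arrays are Illumina expression BeadChips with 25697 probes in the deposited table. Mean raw intensity was 319.9 to 342.8 on the SCI+CDTX arrays used and 230.5 to 277 on the Sham+Saline arrays, and 13122 to 13595 against 11114 to 11850 probes were detected. The design ties surgery to slide and injection to position: SCI arrays lay on slide 1 and sham arrays on slide 2, with CDTX at positions 1 to 4 and saline at positions 5 to 8. SCI+CDTX and Sham+Saline therefore differ in surgery, injection, slide and position at once, and these cannot be told apart. The labels do not say that each array is a different mouse, so p-values measure the spread between these arrays. The skeletal muscle markers Acta1, Ckm, Mylpf, Tnnt3, Myh4 and Ttn summed to 84490 to 99350 raw intensity units over the SCI+CDTX arrays used. Over the Sham+Saline arrays they summed to 87450 to 95910, so the defining markers of the labelled tissue were present on all of them. Summed raw intensities, here and below, are not normalized, and the SCI+CDTX arrays were brighter overall.

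One control array stood apart. In Sham+Saline 4, 122 genes lay more than 1 log2 unit above the other 3 arrays of its group, against 7 to 15 genes for each of those 3. The list of granule genes of marrow neutrophil precursors (Camp, Ltf, Elane, Mpo, Prtn3, Ctsg, Ngp and Prg2, chosen after these values were seen) summed to 3856 raw units there with 8 of 8 detected, and to 721 to 741.1 in the other 3 control arrays. A list of 10 cartilage and bone genes (Col2a1, Col9a1, Col10a1, Acan, Mmp13, Panx3, Ibsp, Bglap, Dmp1 and Phex), chosen the same way, summed to 6430 there with 8 of 10 detected, and to 903.9 to 958.5 in the other 3. The SCI+CDTX arrays used stood at 857.7 to 902.4 for the marrow list and 1043 to 1084 for the bone list. Col2a1, the collagen of cartilage, had log2 levels of 4.45, 4.46, 5.17 and 9.46 on the Sham+Saline arrays and 4.52, 4.32 and 4.34 on the SCI+CDTX arrays. Several results that this control array touches are given below with and without it, and others only with it.

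**Figure D1:**
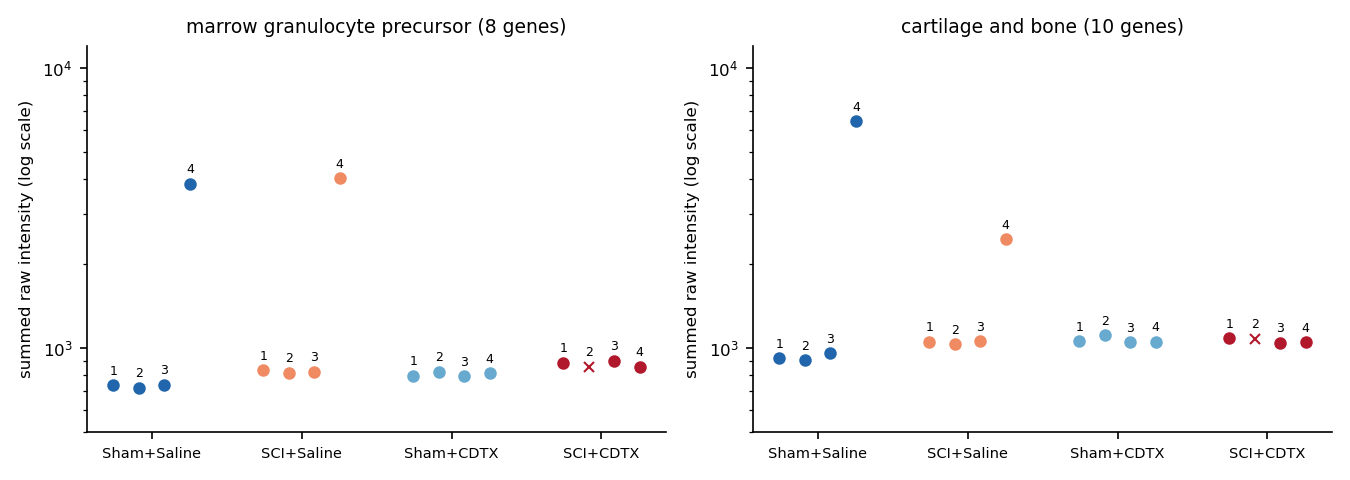
Summed raw intensity (log axis) of 8 marrow granulocyte precursor genes and 10 cartilage and bone genes on each of the 16 arrays, numbered by replicate; the cross is the excluded SCI+CDTX replicate 2. Sham+Saline 4 (3856 and 6430) and SCI+Saline 4 (4026 and 2444) lie above all other arrays on both lists.

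Values below are log2 normalized intensities, and a difference is a log2 fold change of SCI+CDTX over Sham+Saline with its standard error (SE) from limma. A gene is represented by its brightest kept probe and is called at an adjusted p under 0.05 in the limma fit over all 4 groups. Of 10952 genes, 5248 were called (47.9%), 2617 higher (23.9%) and 2631 lower (24%). These are the shares to set beside the counts of every list below. A difference of 1 log2 unit or more was called higher for 1204 genes (11%) and lower for 949 (8.67%), and one of 3 log2 units or more for 106 and 13. The share of calls that were higher depended on the scaling: 49.4% of called probes were higher with quantile normalization, 82.6% with median scaling and 78.3% in the authors' deposited table. The median of all genes was -0.04, 0.35 and 0.48 in those settings, so a small difference has no settled sign, and the text names genes with large ones. The arrays of the groups did not overlap for 2763 higher genes (25.2%) and 2737 lower genes (25%). A second kept probe of a called gene ran in the same direction for 1317 of 1470 genes, and for 594 of 619 genes at 1 log2 unit or more. Among the called genes named below, 46 had further probes called the same way, and 13 had a further probe that was not called: Clcn1, Csf3r, Musk, Myh1, Myog, Phkb, Pfkp, Rps19, Tgfbr2 and Tyk2, with differences from -0.59 to 0.57, and Col3a1 (-0.50), Fbxo32 (-0.06) and Pdlim5 (0.31), whose further probe had the opposite sign. Tpm3 had further probes called the opposite way.

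The largest difference was that of Glycam1 (chromosome 15, band 15qF3). Its product is a mucin-type ligand of L-selectin, made by the high endothelial venules of lymph nodes and by mammary gland. Its log2 levels were 10.31, 10.60 and 10.27 on the SCI+CDTX arrays and 4.22, 4.29, 4.16 and 4.18 on the Sham+Saline arrays, a difference of 6.18 ± 0.17 (SE; adjusted p = 1.38e-14). The control arrays did not detect the probe, so the change is a bound of at least 48.9-fold higher. In the authors' deposited table the group means were 1350 against -4.4 intensity units after background subtraction. All 3 combined arrays were far above all 4 controls, and the single injuries had means of 4.42 with SCI+Saline and 4.26 with Sham+CDTX. Without background correction the difference was 3.69, the smallest of its alternatives.

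Genes of lipid-laden and debris-clearing macrophages were among the leading higher ones. Gpnmb, a membrane glycoprotein of phagocytes, had levels of 12.53, 12.85 and 12.55 against 7.35, 6.60, 7.04 and 6.47, a difference of 5.78 ± 0.33 (adjusted p = 7.61e-10). Lgals3, the galactoside-binding protein galectin-3, had 14.00, 14.09 and 14.03 against 9.29, 8.65, 8.60 and 9.78, a difference of 4.96 ± 0.32 (adjusted p = 2.76e-09). Spp1, which encodes osteopontin, a secreted protein of macrophages and of bone matrix, had 12.89, 13.48 and 13.22 against 7.43, 6.23, 6.79 and 10.23. Its difference was 5.53 ± 0.81 (adjusted p = 1.58e-05), and 6.36 without Sham+Saline 4, its highest control array. The arrays of the groups did not overlap for any of these 3 genes.

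Secreted immune proteins filled most of the remaining leading places. Slpi, a protease inhibitor of neutrophils and epithelia, had 10.44, 10.95 and 11.24 against 4.51, 4.52, 4.28 and 7.37, a difference of 5.71 ± 0.51 (adjusted p = 8.59e-08; 6.45 without Sham+Saline 4). Ccl7 and Ccl2, chemokines that attract monocytes, rose by 5.09 ± 0.54 and 4.92 ± 0.49 (adjusted p = 4.54e-07 and 2.37e-07), and no control array detected Ccl2 (at least 22.2-fold higher). Saa3, an acute phase protein of macrophages and fat, had 8.60, 9.98 and 9.36 against 4.40, 4.30, 4.29 and 4.31, a difference of 4.99 ± 0.48 (at least 23.2-fold higher, adjusted p = 1.59e-07). Ccl4, another chemokine, and Clec4d, a lectin receptor of myeloid cells, rose by 4.83 and 4.75 (adjusted p = 4.73e-07 and 2.19e-06). Probes labelled Chil3 and Chi3l3 rose by 5.04 and 4.69 (adjusted p = 7.13e-05 and 0.000329). Chi3l3 is an earlier symbol of Chil3, a chitinase-like protein, so the 15 leading higher genes hold the same gene under both symbols.

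The other leading higher genes were of other kinds. Gal, the neuropeptide galanin, had 9.57, 10.40 and 9.83 against 5.54, 4.34, 4.31 and 5.07, a difference of 5.12 ± 0.56 (adjusted p = 7.2e-07). Ankrd1, a stretch-responsive protein of the sarcomere and nucleus, had 11.26, 11.17 and 11.16 against 6.65, 5.38, 6.44 and 6.95, a difference of 4.84 ± 0.29 (adjusted p = 1.18e-09). Serpina3n, a secreted inhibitor of serine proteases, had 11.23, 11.61 and 11.55 against 6.39, 6.77, 6.98 and 7.0, a difference of 4.68 ± 0.29 (adjusted p = 1.9e-09). For each of these 3 genes the SCI+CDTX arrays all lay above the control arrays.

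**Figure D2:**
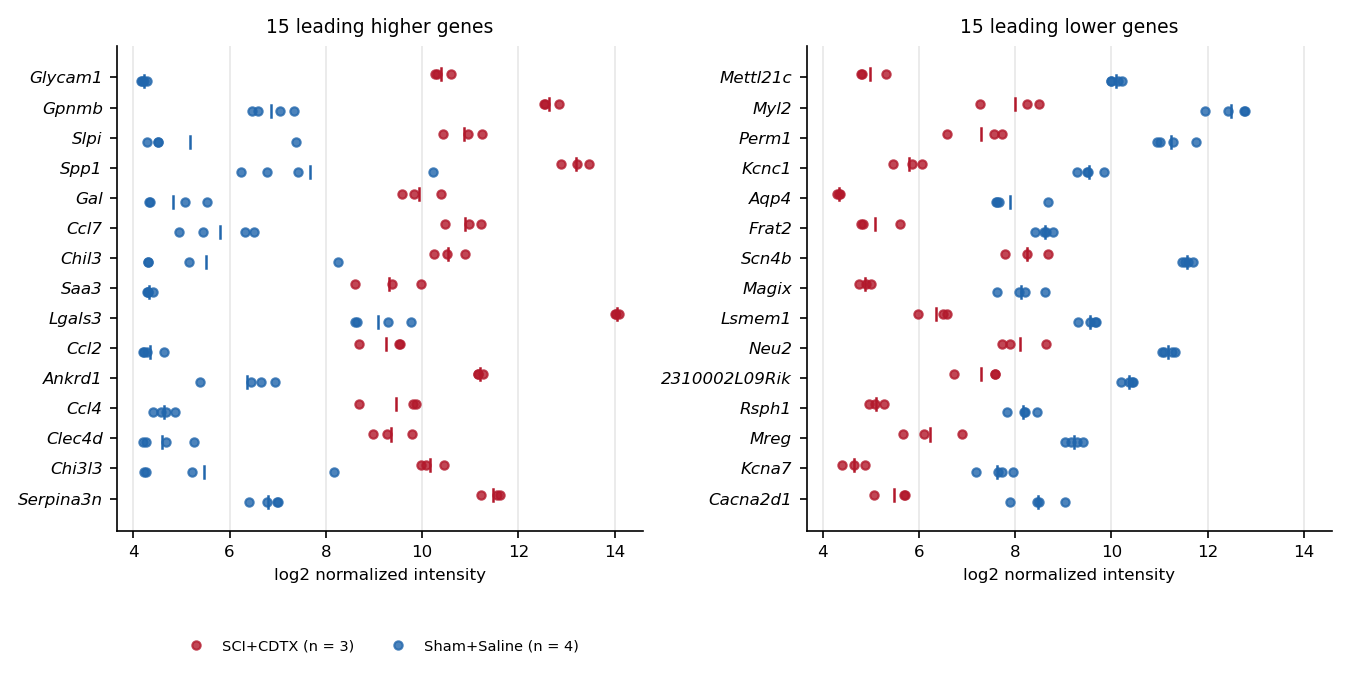
Log2 normalized intensity of the 15 leading higher and 15 leading lower genes on each SCI+CDTX array (red, n = 3) and Sham+Saline array (blue, n = 4), with a bar at each mean. The groups do not overlap, since this was part of the rule that chose the genes; Glycam1 (10.27 to 10.60 against 4.16 to 4.29) and Mettl21c (4.79 to 5.32 against 10.00 to 10.21) lie furthest apart.

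The leading lower gene was Mettl21c, on chromosome 1 (band 1qC1.1), a protein lysine methyltransferase of skeletal muscle. Its levels were 4.79, 4.81 and 5.32 against 10.00, 10.21, 10.14 and 10.00, a difference of -5.11 ± 0.17 (adjusted p = 2.82e-13), and the groups were more than 4 log2 units apart on every array. Myl2, the regulatory light chain of slow and cardiac myosin, had 8.24, 7.27 and 8.50 against 11.94, 12.43, 12.76 and 12.77, a difference of -4.47 ± 0.34 (adjusted p = 1.79e-08). Perm1, a muscle regulator that acts with PGC-1 and ERR factors on mitochondrial genes, had 7.73, 6.59 and 7.56 against 10.95, 11.00, 11.75 and 11.28, a difference of -3.95 ± 0.26 (adjusted p = 4.17e-09).

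Ion channels and membrane proteins of the fibre made up many of the other leading lower genes. Kcnc1, a fast voltage-gated potassium channel, had 5.87, 5.47 and 6.07 against 9.84, 9.52, 9.50 and 9.29, a difference of -3.74 ± 0.22 (adjusted p = 1.13e-09). Aqp4, the water channel of fast fibres, was not detected on any SCI+CDTX array and had 7.60, 7.63, 8.68 and 7.67 on the control arrays, at least 10.4-fold lower (adjusted p = 4.04e-08). Scn4b, a sodium channel subunit, Kcna7, a potassium channel, and Cacna2d1, a calcium channel subunit, fell by 3.34, 2.99 and 2.98 on the log2 scale (adjusted p = 5.11e-09, 7.01e-08 and 3.89e-07). Neu2, a cytosolic sialidase, and Frat2, an inhibitor of the kinase GSK3, fell by 3.09 and 3.53 (adjusted p = 9.17e-09 and 9.48e-10). Magix, Lsmem1, Rsph1, Mreg and 2310002L09Rik completed the list, with differences from -3.24 to -3.0.

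Among the brightest 5% of genes, the 6 highest differences were those of Lgals3, Lyz2, Mt1, Mustn1, Cstb and Laptm5. Lyz2, lysozyme of myeloid cells, had 12.82, 13.38 and 12.82 against 9.32, 8.76, 8.83 and 10.07, a difference of 3.76 ± 0.48 (adjusted p = 3.48e-06). Mt1, the metal-binding metallothionein-1, had 13.83, 13.73 and 13.93 against 10.02, 10.24, 10.14 and 10.52, a difference of 3.60 ± 0.16 (adjusted p = 1.66e-11). Mustn1, a small nuclear protein of regenerating muscle and cartilage, had 13.01, 12.96 and 12.93 against 10.02, 9.80, 9.11 and 9.31, a difference of 3.41 ± 0.26 (adjusted p = 1.79e-08). Cstb, an inhibitor of lysosomal cathepsins, and Laptm5, a lysosomal membrane protein of blood cells, rose by 3.26 and 3.08 (adjusted p = 2.13e-09 and 4e-06). The 6 lowest were Nrep, Mlf1, Myh2, Ky, Myl3 and Actc1. Nrep, a neuronal regeneration-related protein, had 9.51, 9.55 and 9.48 against 12.32, 12.26, 12.61 and 12.58, a difference of -2.93 ± 0.15 (adjusted p = 1.62e-10). Ky, a sarcomere-associated protein whose loss causes spinal curvature in mice, fell by 2.44 (adjusted p = 3.09e-07).

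The 250 bases before the start of 6 genes are printed to show the promoters of members that moved in opposite directions: Cxcl1, Spp1, Socs3 and Glycam1 rose and Myoz2 and Actc1 fell. They come from RefSeq (GRCm38.p6) and run 5′ to 3′ on the gene's strand. Capitals mark the match to 1 motif in each, searched on both strands: GGGA, any 2 bases and TTCC for NF-kB (2 overlapping matches in Cxcl1), GAGGAAGT for the core of PU.1, TTCNNNGAA for STAT factors, and the MEF2 site and the CArG box of serum response factor. A promoter was matched for 8286 of the 10952 genes by symbol, none for Mettl21c or Osm, and the first listed start of a gene was used.
Cxcl1, chr5:90890995-90891244, plus strand: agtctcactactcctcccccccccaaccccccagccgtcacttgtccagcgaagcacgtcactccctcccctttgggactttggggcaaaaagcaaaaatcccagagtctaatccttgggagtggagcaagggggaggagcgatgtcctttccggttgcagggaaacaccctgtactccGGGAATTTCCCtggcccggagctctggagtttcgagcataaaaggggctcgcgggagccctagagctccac
Spp1, chr5:104434861-104435110, plus strand: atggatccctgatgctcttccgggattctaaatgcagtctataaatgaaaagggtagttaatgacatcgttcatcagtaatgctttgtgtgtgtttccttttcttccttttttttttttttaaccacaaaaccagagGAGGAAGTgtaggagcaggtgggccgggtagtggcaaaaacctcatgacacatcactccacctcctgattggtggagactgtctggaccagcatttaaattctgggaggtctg
Socs3, chr11:117969367-117969616, minus strand: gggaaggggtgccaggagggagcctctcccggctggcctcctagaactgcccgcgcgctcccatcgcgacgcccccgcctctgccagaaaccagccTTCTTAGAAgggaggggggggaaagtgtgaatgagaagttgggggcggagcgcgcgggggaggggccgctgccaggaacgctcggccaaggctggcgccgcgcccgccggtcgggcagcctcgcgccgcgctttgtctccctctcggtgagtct
Glycam1, chr15:103565082-103565331, minus strand: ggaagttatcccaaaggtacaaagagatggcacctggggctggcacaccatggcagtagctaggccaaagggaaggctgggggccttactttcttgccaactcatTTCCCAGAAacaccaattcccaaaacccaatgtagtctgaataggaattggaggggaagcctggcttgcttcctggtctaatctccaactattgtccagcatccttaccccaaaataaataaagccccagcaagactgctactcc
Myoz2, chr3:123034988-123035237, minus strand: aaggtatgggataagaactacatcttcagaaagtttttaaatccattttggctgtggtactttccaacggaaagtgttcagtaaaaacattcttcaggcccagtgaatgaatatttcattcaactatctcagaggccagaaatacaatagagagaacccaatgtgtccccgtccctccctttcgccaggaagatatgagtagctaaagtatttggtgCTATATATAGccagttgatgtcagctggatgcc
Actc1, chr2:114052876-114053125, minus strand: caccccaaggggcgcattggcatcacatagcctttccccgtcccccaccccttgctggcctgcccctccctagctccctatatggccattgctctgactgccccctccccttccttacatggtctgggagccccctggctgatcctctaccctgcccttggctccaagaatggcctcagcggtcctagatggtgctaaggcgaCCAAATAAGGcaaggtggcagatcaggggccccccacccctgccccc
The marked letters start 71, 113, 154, 145, 33 and 47 bases before the transcription start in that order. A match is a description of letters and not a binding site. Each printed gene was picked by hand together with the motif to be marked, so the presence of that motif in it is not a result. The NF-kB letters were in 1.1% of the promoters of all genes tested, in 2.49% of those called higher by at least 1 log2 unit and in 1.14% of those called lower by as much. For PU.1 the shares were 2.4%, 3.9% and 2.28%, and for STAT 6.12%, 7.47% and 5.56%. For MEF2 they were 1.8%, 1.41% and 3.42%, and for the CArG box 1.29%, 1.19% and 2.14%. Other motifs were searched as well, and matches to motifs other than the paired one are not marked in the printed promoters. The AP-1 site had 4.59%, 6.17% and 4.84%, and the ERR site 0.266%, 0.758% and 0.285%. The E-box of the MITF/TFE family had 8.22%, 8.55% and 7.69%, and that of the myogenic factors 12.0%, 12.7% and 13.4%. The TATA box had 7.41%, 8.77% and 6.7%. Differences between these shares were not tested.

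Genes of incoming and resident immune cells were measured in 9 lists, each with a median above 0. In bulk muscle, more cells of a type and more RNA per cell cannot be told apart. Of the monocyte and macrophage list, 19 of 20 measured members were called higher and 0 lower, with a median of 2.70, beside 23.9% of all genes called higher and a median of -0.04. Cd68, an endosomal glycoprotein of macrophages, had 10.50, 11.19 and 10.39 against 6.75, 5.54, 5.68 and 6.56, a difference of 4.57 ± 0.35 (adjusted p = 1.69e-08). Adgre1, the macrophage antigen F4/80, rose by 3.37, and Csf1r, the receptor for the growth factor that macrophages need, by 2.38 (adjusted p = 4.34e-07 and 7.58e-07). The complement chains C1qa, C1qb and C1qc rose by 2.63, 3.17 and 2.78, and Cd163, the scavenger receptor for haemoglobin, by 2.12 (adjusted p = 6.45e-07). Summed raw intensity of the macrophage markers was 4575 to 5751 over the SCI+CDTX arrays used and 511.8 to 743.9 over the Sham+Saline arrays.

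Of the phagocytic macrophage and lysosome list, 19 of 22 measured members were called higher (20 of 22 without Sham+Saline 4) and 0 lower, with a median of 2.01. Trem2, a lipid receptor of phagocytes, had 9.42, 9.82 and 9.40 against 5.58, 4.61, 4.35 and 5.04, a difference of 4.65 ± 0.55 (adjusted p = 1.56e-06). The cathepsins differed among themselves. Ctss, the cathepsin of antigen-presenting cells, rose by 3.50, Ctsb by 1.77 and Ctsd by 1.31 (adjusted p = 6.69e-07 and 1.7e-07 for the first 2), while Ctsl had a difference of 0.11. Ctsk, the cathepsin of bone-resorbing cells, had 0.64 with all control arrays (adjusted p = 0.263) and 1.29 without Sham+Saline 4 (adjusted p = 0.000118).

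The neutrophil list held 11 of 16 measured members called higher and 0 lower, with a median of 1.62, and 12 of 15 with a median of 2.12 without Sham+Saline 4. S100a8, a subunit of the neutrophil protein calprotectin, had 10.99, 11.71 and 11.19 on the SCI+CDTX arrays and 5.76, 4.43, 4.91 and 12.72 on the controls, so the groups overlapped on account of Sham+Saline 4. Its difference was 4.34 ± 1.26 (adjusted p = 0.00814) with that array and 6.27 without it. S100a9, its partner, had 3.68 with the array (adjusted p = 0.036) and 5.44 without it, and 11 of its 25 alternatives lost the call. In the authors' deposited table the difference was 0.49 for S100a8 and 0.56 for S100a9, with no call. Granule genes of marrow precursors in the list were not called: Camp had -1.10, Ltf -0.93, Elane -0.69 and Mpo -0.17, all 4 being genes that Sham+Saline 4 held high. Without that array Camp had 0.27, Ltf 0.39 and Elane 0, again with no call. Hp, haptoglobin, had 10.51, 11.53 and 10.80 against 7.75, 7.52, 7.74 and 8.54 with no overlap, a difference of 3.05 ± 0.32 (adjusted p = 4.03e-07), and Csf3r, the receptor for granulocyte colony-stimulating factor, rose by 1.18 (adjusted p = 7.03e-05). Summed raw intensity of 4 neutrophil markers was 3555 to 5053 over the SCI+CDTX arrays used and 367.8 to 8544 over the Sham+Saline arrays.

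Of the chemokines, 16 of 19 measured members were called higher and 0 lower (median 1.59). Beside Ccl7, Ccl2 and Ccl4 there were Ccl9, Ccl6 and Ccl3, at 3.70, 3.35 and 3.23. Cxcl1, a neutrophil chemokine, had 7.04, 8.57 and 8.02 against 4.58, 4.52, 4.94 and 4.99, a difference of 3.12 ± 0.35 (adjusted p = 9.5e-07). Chemokines of lymphoid tissue rose as well: Cxcl13 by 2.10, Ccl19 by 1.59 and Ccl21a by 1.28 (adjusted p = 1.07e-06, 5.47e-08 and 0.00026). For each of these 3 the 3 combined arrays lay above the 4 controls.

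Of the inflammatory cytokine and inflammasome list, 12 of 16 were called higher and 0 lower (median 1.23). Il1b, interleukin-1 beta, had 7.30, 9.01 and 7.87 against 4.46, 4.20, 4.22 and 4.30, a difference of 3.76 ± 0.30 (adjusted p = 2.4e-08), at least 9.71-fold higher since no control array detected it. Il1rn, the antagonist of its receptor, had 7.39, 8.18 and 7.73 against 4.42, 4.36, 4.61 and 4.45, a difference of 3.31 ± 0.17 (adjusted p = 1.62e-10), at least 7.93-fold higher. The receptor chains Il1r1 and Il1rap had differences of -0.27 and 0.05 and were not called. Casp1 and Gsdmd, the protease and the pore protein that release interleukin-1 beta, rose by 2.17 and 2.19 (adjusted p = 3.24e-06 and 5.48e-07). Arg1, arginase-1, had 7.30, 8.28 and 8.28 against 4.22, 4.28, 4.23 and 4.38, a difference of 3.68 ± 0.59 (adjusted p = 4.9e-05). Tgfb1, transforming growth factor beta-1, rose by 2.23, Il33 by 1.42 and Tnf, whose control arrays did not detect it, by at least 1.47-fold (adjusted p = 2.39e-07, 3.58e-05 and 4.76e-06). Nos2, the inducible nitric oxide synthase, had -0.08 and was not called.

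In the list of oncostatin M, the interleukin-6 family and JAK-STAT signalling, 8 of 20 members were called higher and 3 lower (median 0.25), beside 23.9% and 24% of all genes. Under median scaling 11 were higher and 0 lower, so the 3 lower calls are not settled. Osm, the ligand oncostatin M, had 5.88, 6.54 and 6.77 against 4.74, 4.39, 4.21 and 4.70, a difference of 1.89 ± 0.24 (adjusted p = 3.09e-06), at least 3.06-fold higher. Among the receptors, Il6st, the shared chain gp130, rose by 0.80 ± 0.18 (adjusted p = 0.00142), while Osmr, the chain for oncostatin M, had 0.49 (adjusted p = 0.0691), Lifr -0.27 and Il6ra 0.18, none called. Under median scaling Osmr was called, at 1.23 (adjusted p = 0.000117). Of the kinases, Tyk2 rose by 0.95 (adjusted p = 5.58e-05), and Jak1 had 0.26 and was not called (1.03, adjusted p = 0.000215, under median scaling). Among the downstream factors, Stat3 had -0.32 and was not called. Of the induced feedback genes, Socs3, an inhibitor of gp130 signalling, had 8.10, 8.85 and 9.03 against 6.76, 7.13, 7.78 and 7.10, a difference of 1.47 ± 0.33 (adjusted p = 0.00113), and Bcl3 rose by 1.05 (adjusted p = 0.000237).

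Antigen presentation genes had 12 of 14 members called higher and 0 lower (median 1.06), among them the class II chain H2-Aa, 10.00, 10.23 and 9.97 against 7.87, 8.62, 7.94 and 8.58, at 1.82 ± 0.21 (adjusted p = 1.38e-06). Cd74, the invariant chain, and B2m, the light chain of class I, rose by 1.40 and 1.25 (adjusted p = 0.000134 and 4.36e-06).

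The lymphocyte and lymph node list had 11 of 13 measured members called higher and 0 lower (median 1.11), 13 of 13 without Sham+Saline 4, and 13 of its 26 genes did not pass the detection filter or are not on the array. Those 13 include Cd4, Cd8a, Cd79a, Ms4a1 and Madcam1. The filter needs detection on 3 arrays, the number of SCI+CDTX arrays used, so a gene detected only there passes it. Cd3d, Cd3e and Cd3g were each detected on 3 SCI+CDTX arrays, 1 Sham+CDTX array and no saline array. The count and median of this list are therefore partly fixed by the filter. The T cell receptor chains Cd3d, Cd3e and Cd3g rose by 1.15, 1.01 and 1.02 (adjusted p = 1.14e-05, 0.000124 and 2.19e-05), bounds of at least 1.67-fold, 1.58-fold and 1.48-fold. Fcmr, the receptor for IgM on B cells, had 7.09, 7.51 and 7.28 against 4.36, 4.36, 4.28 and 5.76, a difference of 2.60 ± 0.26 (adjusted p = 2.81e-07). Its highest control was again Sham+Saline 4, and the difference was 2.98 without it. Cd79b, a B cell receptor chain, overlapped between groups on account of that array (6.29, 6.72 and 5.87 against 4.39, 4.63, 4.33 and 6.31). Its difference was 1.38 (adjusted p = 0.0112) with the array and 1.87 (adjusted p = 0.000176) without it. Summed raw intensity of the 3 T cell receptor chains was 369.4 to 441.4 over the SCI+CDTX arrays used and 264.6 to 295.1 over the Sham+Saline arrays. The high endothelial venule and lymph node markers, which include Glycam1, summed to 1998 to 2305 and 398.6 to 439.5. The part of lymph node tissue in these values was not tested.

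Interferon response genes had 7 of 17 members called higher and 1 lower (median 0.46). Ifitm3, a membrane protein that blocks virus entry, rose by 1.73 ± 0.22, Oasl2 by 1.36 ± 0.30 and Bst2, tetherin, by 1.17 ± 0.22 (adjusted p = 3.68e-06, 0.00111 and 0.000277). Isg15, Mx1, Usp18 and Rsad2 had differences of 0.46 to 0.65 and were not called. Under median scaling 13 members were higher and 0 lower, these 4 among them, and without SCI+CDTX 1 these 4 were called as well, at 0.81 to 1.00. Only 4 members were called higher and 1 lower with all 16 arrays, and as many with no background correction.

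**Figure D3:**
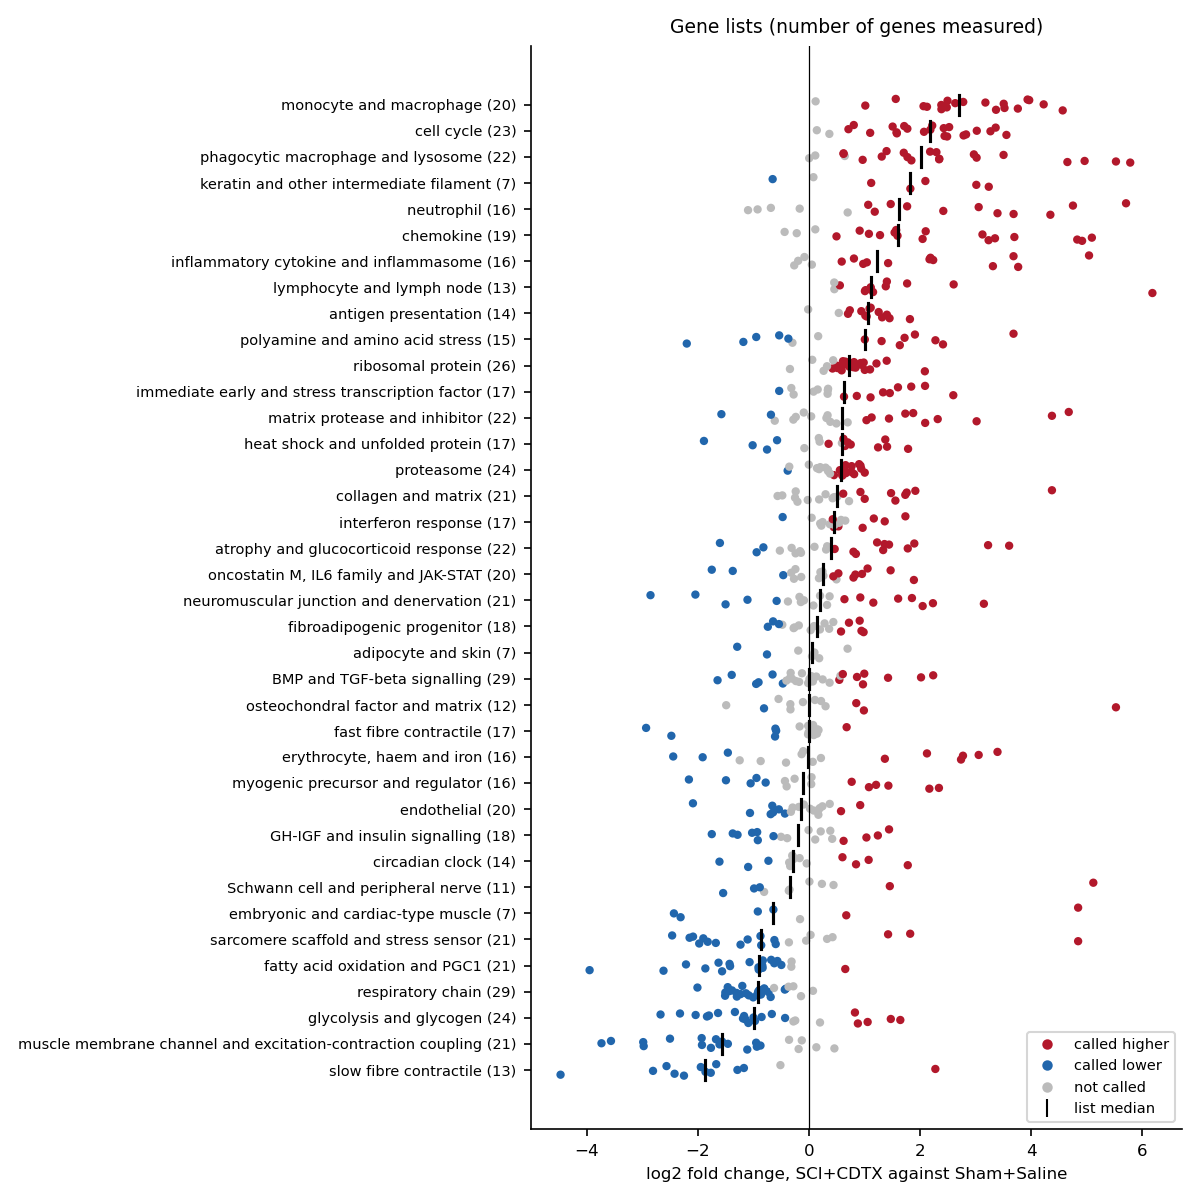
Log2 fold change of SCI+CDTX over Sham+Saline for every measured member of 38 gene lists, 1 row per list with the number measured in brackets, sorted by the list median (black bar). Points are genes, coloured by the limma call; the monocyte and macrophage list (median 2.70) is at the top and the slow fibre contractile list (median -1.87) at the bottom.

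Proliferation genes rose: 21 of 23 measured cell cycle members were called higher and 0 lower, with a median of 2.18. Cdc20, the activator of the anaphase-promoting complex, had 8.28, 8.99 and 8.57 against 4.69, 4.49, 4.24 and 6.81, a difference of 3.55 ± 0.54 (adjusted p = 2.62e-05; 4.16 without Sham+Saline 4, its highest control). The replication helicase subunits Mcm5 and Mcm6 rose by 3.27 and 3.02, and the mitotic kinase Cdk1 by 2.78 (adjusted p = 6.57e-06, 2.28e-07 and 2.2e-06). Ccnd1, cyclin D1, had 10.27, 10.93 and 10.53 against 8.61, 8.50, 8.05 and 8.28, a difference of 2.22 ± 0.22 (adjusted p = 2.27e-07). Cdkn1a, the cell cycle inhibitor p21, rose as well, by 1.71 ± 0.14 (adjusted p = 4.43e-08).

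Stress-induced transcription factors had 9 of 17 members called higher and 1 lower (median 0.63), and 11 and 0 under median scaling. Junb, a subunit of AP-1, had 8.55, 8.86 and 8.52 against 6.39, 6.56, 5.23 and 6.0, a difference of 2.60 ± 0.23 (adjusted p = 8.81e-08). Csrnp1 and Zfp36, the latter a protein that destabilises cytokine mRNAs, rose by 2.09 and 1.84 (adjusted p = 9.59e-06 and 6.04e-06). Ribosomal protein genes had 21 of 26 members called higher and 0 lower (median 0.72), led by Rpl3 at 2.08 ± 0.16 (adjusted p = 2.01e-08) and Rps19 at 1.40 ± 0.16 (adjusted p = 1.18e-06). Proteasome genes had 14 of 24 called higher and 1 lower (median 0.58), with Psmb3 at 1.00 ± 0.16 (adjusted p = 4.73e-05).

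Of the polyamine and amino acid stress list, 8 of 15 were called higher and 5 lower, with 10 and 2 under median scaling and 8 and 2 in the authors' deposited table. Odc1 and Srm, which make putrescine and spermidine, rose by 1.63 ± 0.18 and 2.41 ± 0.19 (adjusted p = 5.48e-07 and 2.05e-08). Smox, the oxidase that turns spermine back to spermidine, had 7.88, 7.88 and 7.81 against 10.31, 10.17, 9.91 and 9.86, a difference of -2.20 ± 0.18 (adjusted p = 3.86e-08). Psat1, an enzyme of serine synthesis, rose by 2.27 (adjusted p = 3.74e-08). Of the chaperones, 9 of 17 were called higher and 4 lower, and 11 and 2 under median scaling. Hspa5, Hsp90b1 and Pdia4 of the endoplasmic reticulum rose by 1.78, 1.40 and 1.37 (adjusted p = 2.84e-06, 1.13e-06 and 6.48e-06). Dnajb5 and the muscle chaperone Hspb6 fell by 1.89 and 1.02 (adjusted p = 3.25e-07 and 0.000137).

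The contractile genes of slow and fast fibres stood far apart. Of the slow fibre list, 11 of 13 measured members were called lower and 1 higher, with a median of -1.87, beside 24% of all genes called lower. Beside Myl2, Tnnc1, slow troponin C, had 8.98, 8.82 and 9.12 against 11.14, 11.63, 12.18 and 12.18, a difference of -2.81 ± 0.30 (adjusted p = 5.92e-07). Myh7, the slow myosin heavy chain, had 4.31, 4.40 and 4.71 against 6.48, 6.14, 7.56 and 6.71, a difference of -2.25 ± 0.26 (adjusted p = 1.03e-06). Myoz2, calsarcin-1 of the slow fibre Z disc, and Tnni1, slow troponin I, fell by 2.57 and 1.87 (adjusted p = 1.45e-08 and 6.6e-05). The member that rose was Tpm3, at 2.27 ± 0.24 (adjusted p = 4.73e-07), a tropomyosin gene that non-muscle cells also use, but its other 3 kept probes were called lower, at -2.67, -2.61 and -2.47 (adjusted p = 3e-06, 2.73e-06 and 0.000107). The direction of Tpm3 is therefore not settled between probes.

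Of the fast fibre list, 1 of 17 was called higher and 5 lower, with a median of -0.01, beside 23.9% and 24% of all genes. Mylpf, the fast regulatory light chain, had 14.09, 14.29 and 14.18 against 14.18, 14.26, 14.21 and 14.14, a difference of -0.01 ± 0.12 (adjusted p = 0.96). Tnnt3, fast troponin T, had -0.02 ± 0.12, Myh4, the fastest myosin heavy chain, 0.08 ± 0.15, and Ckm, muscle creatine kinase, 0.07 ± 0.13. Of these 17 genes, 12 had mean levels of at least 12.58, within the top 1% of all genes, where the highest mean was 14.24, and 2 of those 12 were called. No slow fibre gene had such a level, and the part of signal limits at the top of the scale in this difference was not tested. Under median scaling the fast list's median was -0.14 while that of all genes was 0.35, and in the authors' deposited table it was -0.41 while that of all genes was 0.48, so how far the fast list stood from the rest depended on the scaling. The fast members that fell were Casq1, the calcium store of the sarcoplasmic reticulum (9.20, 8.20 and 8.65 against 12.00, 11.61, 11.64 and 11.23; -2.93 ± 0.27, adjusted p = 8.66e-08), and Myh2, the heavy chain of intermediate fast fibres (-2.48 ± 0.21, adjusted p = 4.77e-08), with differences of -0.61, -0.59 and -0.61 for Mybpc2, Actn3 and Myh1. These last 3 calls were lost without SCI+CDTX 3 (-0.42, -0.39 and -0.43; adjusted p = 0.151, 0.0857 and 0.147), and that of Mybpc2 also without SCI+CDTX 4.

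Of the sarcomere scaffold and stress sensor list, 13 of 21 were called lower and 3 higher (median -0.86). Abra, a regulator of serum response factor, had 8.36, 7.41 and 8.28 against 10.31, 9.99, 11.05 and 10.59, a difference of -2.47 ± 0.34 (adjusted p = 8.82e-06). Ldb3 and Pdlim5 of the Z disc fell by 2.15 and 2.09, and the giant protein titin, Ttn, by 0.86 (adjusted p = 2.94e-06, 4.75e-06 and 0.000798). The 3 that rose were Ankrd1 and the small chaperones Hspb7 and Cryab, at 1.82 ± 0.22 and 1.42 ± 0.15 (adjusted p = 2.33e-06 and 4.27e-07). Of the intermediate filament list, 5 of 7 were called higher and 1 lower (median 1.82). Krt18 and its partner Krt8 had differences of 3.23 ± 0.23 and 1.82 ± 0.28 (adjusted p = 9.53e-09 and 2.76e-05), and no control array detected Krt18 (at least 6.77-fold higher). Vim, the filament of mesenchymal and blood cells, had 11.98, 12.29 and 11.91 against 9.41, 8.91, 8.70 and 9.18, a difference of 3.01 ± 0.27 (adjusted p = 6.8e-08).

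Membrane channels and excitation-contraction coupling had 16 of 21 members called lower and 0 higher (median -1.57). Besides the channels above, Hrc, a calcium-binding protein of the sarcoplasmic reticulum, had 11.43, 10.69 and 11.12 against 13.12, 12.98, 13.02 and 12.95, a difference of -1.93 ± 0.17 (adjusted p = 6.79e-08). The sodium pump subunit Atp1b1 fell by 2.50, the junctophilins Jph1 and Jph2, which tie the transverse tubule to the calcium store, by 1.93 and 1.61, and Clcn1, the muscle chloride channel, by 1.77.

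The neuromuscular junction list was split, with 8 of 21 called higher and 5 lower. The acetylcholine receptor subunits parted by type. Chrng, the embryonic gamma subunit that denervated fibres use again, had 8.43, 8.42 and 8.77 against 5.31, 5.36, 5.40 and 5.50, a difference of 3.15 ± 0.29 (adjusted p = 9.71e-08). Chrna1, the alpha subunit, rose by 2.04 ± 0.16, Chrna9 by 2.23 ± 0.27, and Musk, the receptor kinase of the junction, by 1.16 ± 0.16 (adjusted p = 2.16e-08, 1.68e-06 and 6.33e-06). Chrne, the adult epsilon subunit, had 5.54, 5.17 and 5.32 against 7.34, 7.42, 5.94 and 6.68, a difference of -1.50 ± 0.26 (adjusted p = 0.000106), and Chrnb1 had 0.08 (adjusted p = 0.768). Lynx1, a modulator of these receptors, and Ache, acetylcholinesterase, fell by 2.86 and 1.11 (adjusted p = 6.46e-09 for Lynx1). Gadd45a and Runx1, genes that denervation induces in muscle, rose by 1.85 and 1.60 (adjusted p = 1.17e-06 and 6.68e-06).

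Atrophy and glucocorticoid response genes had 11 of 22 members called higher and 3 lower (median 0.39), and 16 and 1 under median scaling. Besides Mt1, its relative Mt2 had 7.41, 7.76 and 8.33 against 4.28, 5.00, 4.32 and 4.83, a difference of 3.22 ± 0.26 (adjusted p = 3.42e-08). Fbxo32, the ubiquitin ligase atrogin-1, rose by 0.84 ± 0.26 (adjusted p = 0.0124; 0.55, adjusted p = 0.107, without SCI+CDTX 1), while Trim63, the ligase MuRF1, had -0.24 ± 0.24 (adjusted p = 0.431). Sln, sarcolipin, an inhibitor of the calcium pump, and Cebpb and Ddit4, 2 glucocorticoid targets, rose by 1.89, 1.36 and 1.33 (adjusted p = 0.000322, 5.33e-06 and 4.07e-06).

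Among regulators of muscle precursors, 6 of 16 were called higher and 5 lower, 7 and 2 under median scaling and 6 and 1 in the authors' deposited table, so the lower calls are not settled. Myog, the lineage factor myogenin, had 8.88, 8.70 and 8.65 against 6.57, 6.48, 6.40 and 6.18, a difference of 2.34 ± 0.20 (adjusted p = 5.06e-08). Myod1, which acts before it, had 7.86, 7.85 and 8.06 against 6.42, 6.01, 5.78 and 4.82, a difference of 2.17 ± 0.25 (adjusted p = 1.22e-06). Myf6, the factor of mature fibres, rose by 1.08 ± 0.21, and Mef2c fell by 2.16 ± 0.30 (adjusted p = 0.0004 and 8.33e-06). Of the embryonic and cardiac-type muscle list, 2 of 7 measured genes were called higher and 4 lower (median -0.64). Its highest difference was 4.84, while Myh6 and Actc1 fell by 2.43 and 2.31 (adjusted p = 1.21e-06 and 1.71e-07). Of its 14 genes, 7, Myh3 among them, did not pass the detection filter or are not on the array.

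Genes of energy metabolism were lower. Of the respiratory chain, 24 of 29 measured members were called lower and 0 higher (median -0.92). Cox7a1, the muscle form of a cytochrome oxidase subunit, had 11.22, 10.41 and 10.55 against 12.77, 12.77, 12.74 and 12.67, a difference of -2.01 ± 0.25 (adjusted p = 2.84e-06). Ndufb3 of complex I and Sdhc of complex II fell by 1.51 and 1.51 (adjusted p = 6.52e-07 and 2.37e-07). Of the fatty acid oxidation and PGC1 list, 18 of 21 were called lower and 1 higher (median -0.91), and 11 lower and 1 higher under median scaling. The coactivators Ppargc1a and Ppargc1b fell by 1.57 and 2.62, Cpt1b, which takes fatty acids into mitochondria, by 1.87, and Fabp3, the fatty acid carrier of slow and cardiac muscle, by 1.63 (adjusted p = 2.25e-05, 6.73e-08, 2.39e-07 and 2.78e-07).

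Of the glycolysis and glycogen list, 16 of 24 were called lower and 5 higher (median -0.99). In 4 pairs of related enzymes or carriers, named after their values were seen, the muscle form fell and the widely expressed form rose. Eno3, muscle enolase, and Pgam2, muscle phosphoglycerate mutase, fell by 1.19 and 1.14. Their relative Eno1 had 10.63, 11.26 and 10.72 against 9.98, 9.60, 8.93 and 9.07, a difference of 1.47 ± 0.25 (adjusted p = 8.67e-05). Pgam1 had 7.81, 8.35 and 7.83 against 6.53, 6.36, 6.34 and 6.18, a difference of 1.64 ± 0.17 (adjusted p = 3.64e-07). Likewise Pfkm fell by 1.09 and Pfkp rose by 1.05 ± 0.19 (adjusted p = 0.000132), but the other kept Pfkp probe had 0.12 (adjusted p = 0.659). The insulin-regulated glucose carrier Slc2a4 fell by 1.34 (adjusted p = 0.000698), while the general carrier Slc2a1 rose by 0.83. With all 16 arrays Slc2a1 had 0.54 (adjusted p = 0.082). The phosphorylase kinase subunits Phkg1, Phkb and Phka1, which start glycogen breakdown, fell by 2.67, 2.04 and 1.80 (adjusted p = 1.9e-07 and 1.21e-05 for the first 2).

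Connective tissue lists had smaller medians, and several values rested on Sham+Saline 4. Collagen and matrix genes had 9 of 21 members called higher and 0 lower (median 0.51), and 13 of 21 without that array (median 0.63). Timp1, an inhibitor of metalloproteinases, had 10.59, 11.51 and 11.28 against 6.72, 5.59, 6.27 and 8.43, a difference of 4.37 ± 0.52 (adjusted p = 1.76e-06). Col3a1 rose by 1.55 ± 0.23 (adjusted p = 2.33e-05), and Lox, which crosslinks collagen, by 1.91 ± 0.30 (adjusted p = 3.75e-05). Col1a1, the main collagen of bone and tendon, had 9.56, 10.30 and 9.43 against 9.31, 9.35, 9.28 and 11.96 and was not called (-0.21, adjusted p = 0.774; 0.45, adjusted p = 0.329 without Sham+Saline 4). Matrix proteases and inhibitors had 10 of 22 called higher and 2 lower (median 0.59), with a median of 1.12 without that array. Mmp12, the macrophage elastase, had 7.71, 7.14 and 7.01 against 4.43, 4.27, 4.21 and 4.19, at least 5.69-fold higher (adjusted p = 5.56e-07), and Mmp3, Adam8 and Plaur rose by 2.09, 2.32 and 1.87 (adjusted p = 8.71e-07, 2.46e-08 and 1.44e-07). Timp4, an inhibitor of muscle and heart, fell by 1.58 ± 0.23 (adjusted p = 1.48e-05).

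Fibroadipogenic progenitors, the connective tissue cells from which ectopic bone can arise, had 5 of 18 markers called higher (27.8%) and 3 lower (16.7%), near the 23.9% and 24% of all genes (median 0.14), and 9 higher and 0 lower under median scaling. Pdgfra, their receptor marker, had 8.92, 9.17 and 9.30 against 7.58, 7.99, 8.37 and 8.64, a difference of 0.98 ± 0.21 (adjusted p = 0.000746), and Ly6a, also called Sca-1, rose by 0.94 (adjusted p = 0.00126). Dcn, decorin, had 0.03 ± 0.23 and was not called.

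Bone morphogenetic protein (BMP) and TGF-beta signalling had 8 of 29 members called higher (27.6%) and 6 lower (20.7%), near the 23.9% and 24% of all genes, with a median of 0.01, and 14 higher and 2 lower under median scaling. Among the ligands, Tgfb1 rose and Tgfb2 fell by 1.39 ± 0.19 (adjusted p = 6.7e-06), and Gdf5 and Bmp6 had 0.37 and -0.02. Among the receptors, Tgfbr2 rose by 0.99 ± 0.17 and Acvr2b fell by 1.65 ± 0.23 (adjusted p = 0.000104 and 9.58e-06), while Acvr1, whose activating mutations cause inherited ectopic bone, had -0.24 (adjusted p = 0.241) and, under median scaling, 0.54 (adjusted p = 0.016). Nog, the secreted inhibitor noggin, had 0.13 (adjusted p = 0.504). The BMP target gene Id1 had 7.84, 8.68 and 8.36 against 6.51, 7.14, 6.58 and 7.26, a difference of 1.42 ± 0.24 (adjusted p = 9.29e-05). Id2, an inhibitor of the same family, had 7.32, 7.41 and 7.60 against 5.07, 4.99, 5.93 and 5.73, a difference of 2.02 ± 0.26 (adjusted p = 3.68e-06).

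Of 24 osteochondral genes, 12 passed the detection filter. Of these, 3 were called higher (25%) and 1 lower (8.33%), beside 23.9% and 24% of all genes, so the higher share was near that of all genes. Under median scaling 3 were higher and 0 lower, so the lower call is not settled. The 12 that did not pass include Runx2, Sp7, Ibsp, Bglap, Col10a1 and Acan. Besides Spp1, Sox9, the early factor of cartilage, had 5.54, 5.63 and 5.35 against 4.83, 4.34, 4.26 and 4.66, a difference of 0.99 ± 0.20 (adjusted p = 0.00046), and Mgp, matrix Gla protein, which restrains mineral, had 0.85 ± 0.22 (adjusted p = 0.00364). Sox9 stood at 5.36 with SCI+Saline and 5.55 with Sham+CDTX.

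The remaining lists were short or split, and their counts stand beside 23.9% of all genes called higher and 24% called lower. Endothelial genes had 2 of 20 called higher and 7 lower, but 10 higher and 1 lower under median scaling, so the direction is not settled. Vegfa, the endothelial growth factor that muscle fibres make, fell by 2.09 ± 0.21 (adjusted p = 3.27e-07), and Plvap, a diaphragm protein of leaky vessels, rose by 0.92 ± 0.18 (adjusted p = 0.000378). Schwann cell genes had 2 of 11 called higher (18.2%) and 3 lower (27.3%), near the shares of all genes, and under median scaling 3 and 0. Of the growth hormone, IGF and insulin list, 4 of 18 were higher and 7 lower, and 7 and 2 under median scaling. Ghr, the growth hormone receptor, fell by 1.29 ± 0.19, and Igfbp7 rose by 1.24 ± 0.16 (adjusted p = 1.45e-05 and 4.73e-06). In the haem and iron list, 6 of 16 were higher and 3 lower. Hmox1, which breaks down haem, and Slc11a1, an iron carrier of phagosomes, rose by 2.74 and 2.77, and Slc40a1, the iron exporter, and Tfrc, the transferrin receptor, fell by 2.45 and 1.92 (adjusted p = 3.29e-06, 3.2e-08, 9.95e-08 and 1.92e-07). The haemoglobin genes Hba-a1 and Hbb-b1 had -0.42 and 0.07 and were not called. Adipocyte and skin genes had 0 of 7 higher and 2 lower, and 2 and 1 under median scaling, with Adipoq, adiponectin, at 0.18 and not called. Summed raw intensity of the adipocyte markers was 2097 to 2270 in SCI+CDTX and 1064 to 1483 in Sham+Saline, and that of the keratinocyte markers 202.1 to 227.8 and 179.5 to 187.2. These sums are not normalized, and the SCI+CDTX arrays were brighter. The other adipocyte markers, Plin1 and Cidec, had normalized differences of 0.05 and 0.69 and were not called. Under median scaling Cidec was called, at 1.38 (adjusted p = 0.00615). The keratinocyte markers on the array, Krt5 and Krt14, did not pass the detection filter. The sums therefore do not show whether the groups differed in fat or skin. Circadian clock genes had 4 of 14 higher (28.6%) and 3 lower (21.4%), near the shares of all genes. Among them, Per1 was higher by 1.78 ± 0.25 and Nr1d1 lower by 1.61 ± 0.25 (adjusted p = 8.65e-06 and 3.4e-05). The hour of sampling is not given in the sources used here.

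The single injuries were measured on the same chips and are set beside the combined injury. All 3 comparisons against Sham+Saline share those 4 arrays, so their values are listed side by side and their likeness is not a result. SCI+Saline against Sham+Saline had 30.5% of genes called (14.7% higher, 15.8% lower) and Sham+CDTX against Sham+Saline 50.6% (23.7% higher, 26.9% lower). The monocyte and macrophage list had medians of 0.51 with SCI+Saline, 3.21 with Sham+CDTX and 2.70 with SCI+CDTX. The cell cycle list had 0.08, 1.82 and 2.18, and the slow fibre list -0.68, -1.61 and -1.87, in the same order. The neutrophil list had 0.15, 0.60 and 1.62, the lymphocyte and lymph node list -0.09, 0.18 and 1.11, and the intermediate filament list 0.41, 0.53 and 1.82. Some members of the lymphocyte and lymph node list passed the detection filter only through the SCI+CDTX arrays, so the order of its medians is partly fixed by the filter. One SCI+Saline array stood apart as well: in SCI+Saline 4, 89 genes lay more than 1 log2 unit above the other 3 arrays of its group, against 3, 10 and 10 for each of those. S100a9 was at 11.59 on it and at 5.50 to 6.75 on the other 3, and S100a8 had means of 11.69 with SCI+Saline and 11.30 with SCI+CDTX, so S100a8 does not follow the order of the list's medians. On the proteasome list the values were 1.22, 0.21 and 0.58, on the atrophy list 1.06, -0.04 and 0.39, and on the interferon list -0.39, 1.33 and 0.46. The combined injury thus had the highest of the 3 medians on some lists and lay between the single injuries on others, and these differences between lists were not tested.

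**Figure D4:**
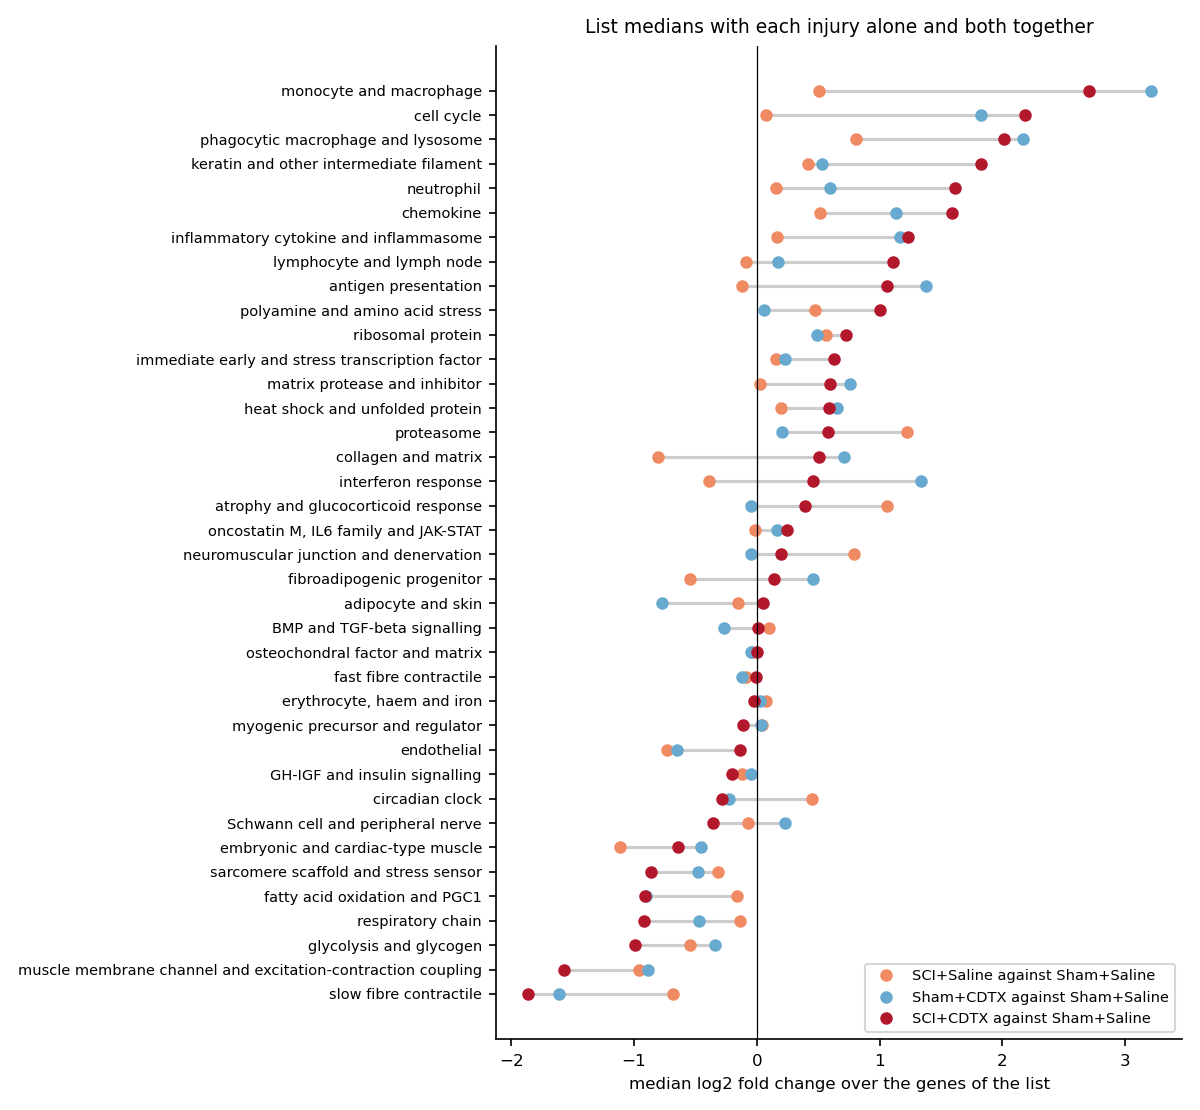
Median log2 fold change against Sham+Saline over the measured members of each list with cord injury alone (orange), cardiotoxin alone (light blue) and both (red); the 3 comparisons share the Sham+Saline arrays. On the neutrophil list the medians are 0.15, 0.60 and 1.62, and on the proteasome list 1.22, 0.21 and 0.58.

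Single genes follow in the same order of groups. Krt18 had means of 9.45 with SCI+Saline, 4.65 with Sham+CDTX and 7.54 with SCI+CDTX. It was 1.91 lower with SCI+CDTX than with SCI+Saline on the log2 scale (adjusted p = 5.71e-06), a comparison in which 44.3% of genes were called (22.1% higher, 22.2% lower). Myog had 9.74, 7.52 and 8.74, also lower with SCI+CDTX than with SCI+Saline, by 1.00 (adjusted p = 0.000547), and Fbxo32 had 10.57, 7.58 and 9.26. Trem2 had 6.23, 10.09 and levels of 9.42, 9.82 and 9.40 with SCI+CDTX. Oasl2 had 7.21, 10.24 and levels of 8.68, 9.26 and 9.71, so it was highest with cardiotoxin alone, and its SCI+CDTX level was 1.02 lower than that of Sham+CDTX (adjusted p = 0.0154), a comparison in which 32.2% of genes were called (16.4% higher, 15.8% lower). That call was lost without SCI+CDTX 1 (-0.76, adjusted p = 0.104) and with no detection filter (-1.02, adjusted p = 0.0562).

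**Figure D5:**
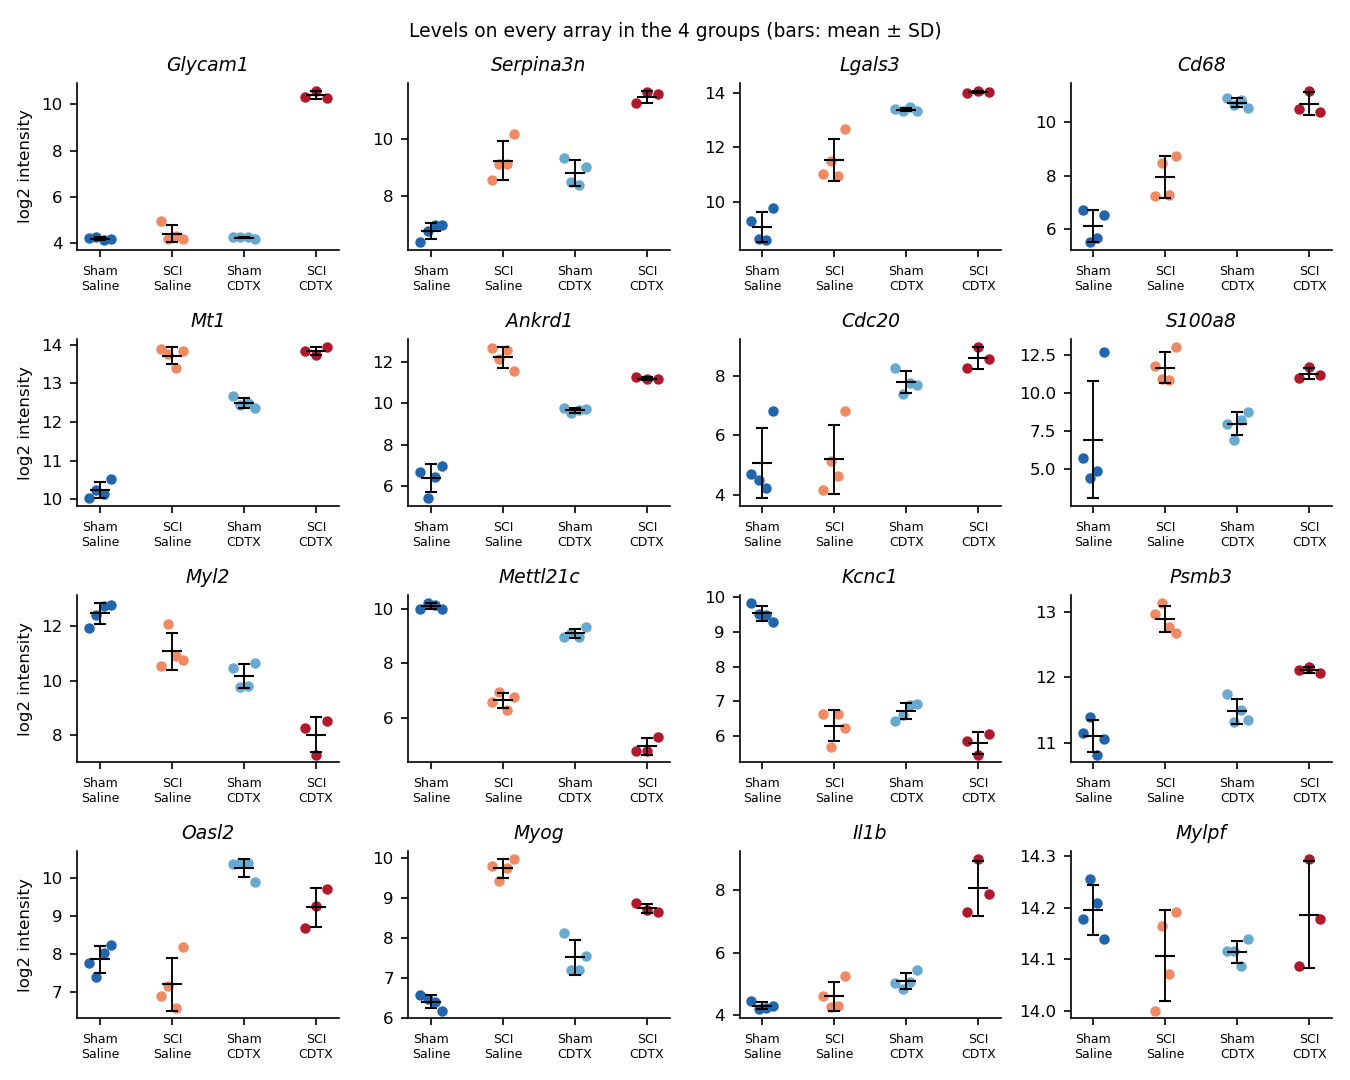
Log2 normalized intensity of 16 genes on every array of the 4 groups, with the mean ± SD per group (n = 3 for SCI+CDTX, n = 4 for the others); each panel has its own axis, and the Mylpf panel spans about 0.3 log2 units. Glycam1 is at 10.27 or more on the SCI+CDTX arrays and below 5 on all others, Mt1 and Ankrd1 are highest in the SCI groups and also above Sham+Saline in Sham+CDTX (Ankrd1 mean 9.66), Lgals3 and Cd68 are high in both CDTX groups, and S100a8 has 1 high Sham+Saline array at 12.72.

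Some genes differed in the combined injury from each single injury as well. Of the leading genes, 4 of 15 higher and 11 of 15 lower ones were called beyond both. With the probe score described below as a covariate, 2 and 5 were. These genes were chosen on the same SCI+CDTX arrays, so the counts are a description. The share of all genes called beyond both was not counted. Of all genes, 44.3% were called against SCI+Saline and 32.2% against Sham+CDTX, in either direction. Glycam1 was 5.97 above SCI+Saline and 6.14 above Sham+CDTX (adjusted p = 2.59e-14 and 1.57e-14), where 4 of 4 Sham+CDTX arrays and 3 of 4 SCI+Saline arrays did not detect it (at least 58.8-fold over Sham+CDTX). Fcmr was 2.83 and 3.00 above them (adjusted p = 7.27e-07 and 3.46e-07), and Serpina3n 2.23 and 2.66 (adjusted p = 1.05e-05 and 3.01e-06). Mettl21c was 1.68 below SCI+Saline and 4.12 below Sham+CDTX (adjusted p = 1.3e-06 and 1.42e-11). Its means ran from 10.09 in Sham+Saline through 9.09 in Sham+CDTX and 6.66 in SCI+Saline to 4.97 in SCI+CDTX, each group clear of the next. Neu2, Scn4b and Frat2 were below SCI+Saline by 1.18, 0.76 and 0.82 and below Sham+CDTX by 1.03, 1.95 and 1.82 (adjusted p between 3.9e-06 and 0.011). Against SCI+Saline, Frat2 lost its call under median scaling (-0.54, adjusted p = 0.075) and Scn4b without SCI+CDTX 3 (-0.54, adjusted p = 0.095). Il1b was 3.46 above SCI+Saline and 2.96 above Sham+CDTX (adjusted p = 4.62e-07 and 1.26e-06), and Osm 1.73 and 1.12 (adjusted p = 1.63e-05 and 0.00146).

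The contrast with Sham+CDTX was also fitted with a measure of probe disagreement. A score of how far different probes of the same gene disagree was added as a covariate, over all 16 arrays. The score was 13.6 to 15.77 on the Sham+CDTX arrays, 12.48 on the excluded array SCI+CDTX 2 and -9.6 to -1.28 on the other 11, so that apart from this array it nearly coincided with Sham+CDTX. That fit therefore changes the covariate and the arrays at once, and its contrast with Sham+CDTX rests largely on the excluded array. In it the difference from Sham+CDTX was 6.02 for Glycam1 (adjusted p = 9.1e-11), -3.55 for Mettl21c (adjusted p = 2.6e-07), 2.51 for Fcmr (adjusted p = 0.0023) and 1.78 for Serpina3n (adjusted p = 0.026). It was 0.72 for Il1b (adjusted p = 0.5) and -0.17 for Osm (adjusted p = 0.89), neither of them called. Mustn1, Scn4b, Neu2, Frat2, Hrc and Smox had a call against both single injuries there too.

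The excluded array, SCI+CDTX replicate 2, was not in the reported fit. Its median correlation across probes was 0.952 with the other SCI+CDTX arrays and 0.968 with the Sham+CDTX arrays, while each of the other 3 correlated best with its own group (0.987 to 0.99). On a normalization of all 16 arrays it lay beyond every Sham+Saline array, in the direction of the other 3, for 15 of 15 leading higher and 15 of 15 leading lower genes. The leading genes were chosen against these same control arrays, so this count is a description. Over all genes it lay above every control for 31.7% and below every control for 34.1%, and it did so in the called direction for 71.4% of the genes called higher and 73.6% of those called lower. Glycam1 stood at 10.23 on it and at 4.17 to 4.3 on the control arrays, Serpina3n at 10.79 against 6.43 to 7.04, and Mettl21c at 5.51 against 10.03 to 10.24. Its Myl2 level was 10.16, against 11.96 to 12.79 on the controls.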

How the data were processed

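The authors deposited raw mean bead intensities and detection p-values per array for 16 one-colour Illumina BeadChips, from GenomeStudio 2011.1 per the submitters' processing notes. They also deposited group mean intensities with p-values, made with average normalization per the file headers; background subtraction is read from that analysis's name, and whether the p-values are adjusted is not stated.

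The raw intensities were processed with limma 3.58.1 in R 4.3.3: neqc (offset 16, quantile normalization, log2), probes with detection p under 0.05 on at least 3 of 15 arrays (14763 of 25697), 1 model with 4 group means, eBayes, and Benjamini-Hochberg adjustment over all kept probes, called under 0.05. SCI+CDTX 2 was left out. Probes were named through Entrez identifiers in RefSeq's gene table (23681 matched, 4172 with a changed symbol). Where no array of a group detected a probe, the fold is a bound: the brighter group's mean against, per array, the higher of the dim probe's signal and the lowest detected signal. In simulated data for SCI+CDTX against Sham+Saline (14763 probes, 200 changed), 77% were recovered at 1 log2 unit and 100% at 2, with 8 false calls. The changes were added after normalization, to far fewer probes than were called, with independent noise. The simulation therefore does not test the scaling, an outlying array or the slide.

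The text names, among genes with no overlap of arrays, the 15 highest and 15 lowest called differences, the 6 highest and 6 lowest among the brightest 5% of genes, and from each of 38 lists up to 3 called members per direction and the 2 brightest, leaving some out; other members were named after their values were seen. The comparison, its members and its lists were chosen with earlier results of these data known. Alternatives were all 16 arrays, median scaling, no background correction, other detection filters, trended and robust eBayes, only the compared groups, a replicate block, a probe disagreement score as covariate over all 16 arrays, the authors' deposited table (log2 ratios of group means, with means under 1 set to 1), and each array left out. The number of arrays limits the precision.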

Additional observations from a re-analysis of the deposited data

Results flagged for a closer look

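For each named gene, the gap from the highest or lowest Sham+Saline array to its neighbour was set against the range of the 4 arrays. Some of the genes were named after Sham+Saline 4 was seen to hold them high. Genes that share 1 outlying array are also not independent. The count is therefore a description and is not set against a chance rate. Dixon's 95% limit was passed by 24 of 232 genes. Of these, 18 rested on Sham+Saline 4, which was the high array for 16 and the low array for Mybpc2 (0.86 of the range) and Trim63 (0.847). The high ones were the granulocyte genes Camp (0.933), Ltf (0.922), Elane (0.902), Mpo (0.932), S100a8 (0.84) and S100a9 (0.964), the skeletal genes Col1a1 (0.973), Col2a1 (0.856), Mmp13 (0.903), Phex (0.941) and Ctsk (0.868), and Slpi (0.922), Laptm5 (0.917), Fcmr (0.947), Cd79b (0.849) and Cdk1 (0.91). Camp stood at 9.87 there, with the next array at 4.57, and S100a9 at 11.3 with the next at 4.46. Laptm5 stood at 10.9 with the next at 9.56. Sham+Saline 3 was the high array for Aqp4 (0.932) and Phkb (0.856) and the low array for Tgfb1 (0.83), and Sham+Saline 1 was high for Ccl3 (0.927) and Saa3 (0.851) and low for Jak1 (0.842).

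The array SCI+CDTX 2, which was not in the fit, lay beyond every Sham+Saline array in 30 of the 30 leading genes, in the direction of the other SCI+CDTX arrays, and did so for 71.4% of all genes called higher and 73.6% of those called lower. The leading genes were chosen against these same control arrays, and SCI+CDTX 2 correlated more closely with Sham+CDTX (0.968) than with its own group (0.952).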

How the results depend on the processing

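The 6868 probes called between SCI+CDTX and Sham+Saline became 7805 under median scaling (6449 higher, 1356 lower) and 6260 in the authors' deposited table (4902 higher, 1358 lower), against 3391 higher and 3477 lower in the reported fit, so the balance of directions depends on the scaling. Leaving out 1 array gave 5653 (without SCI+CDTX 3) to 7029 calls, with 2849 to 3476 higher and 2804 to 3553 lower. No other alternative moved these counts by over 1.5 times. SCI+CDTX against Sham+CDTX had 4393 calls, 2613 with all 16 arrays, 501 with the probe disagreement score as a covariate over all 16 arrays and 3192 to 4572 with 1 array left out. Sham+CDTX against Sham+Saline had 7219 calls, 4578 with the score and 6473 to 7387 with 1 array left out. With 1 array left out, SCI+CDTX against SCI+Saline gave 4719 to 6662 calls and SCI+Saline against Sham+Saline 3661 to 4500. The replicate number as a block gave 6555 calls (3253 higher, 3302 lower). The deviations of same-numbered arrays from their group means correlated at 0.096, -0.246 and 0.063 (replicates 1, 3 and 4, across probes). With so few arrays, these values do not show whether the replicate numbers pair the arrays. Of the 195 named genes called in the main comparison, 186 kept their call and direction under every alternative run and 9 lost the call under at least 1 (Actn3, Cd79b, Chrne, Fbxo32, Mybpc2, Myh1, S100a8, S100a9 and Slc2a1). Acvr1, not called, had 0.54 under median scaling, and Osm against Sham+CDTX had -0.17 with the score. The cause of these shifts was not tested. Surgery and slide, and injection and position, cannot be told apart.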
